A study of Mus musculus with 4 samples.

Results

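The genes of 9 gut peptide hormones or neuropeptides and of Tph1, the enzyme that starts serotonin synthesis in enterochromaffin cells, were examined in stem cells and villus cells of the mouse proximal intestine. They were chosen by name, namely Cck, Gcg, Gip, Sct, Sst, Tac1, Pyy, Nts, Ghrl and Tph1, and all 10 were among the 12393 genes measured, each by 1 probe set. RNA came from C57BL/6 mice aged 4 to 6 weeks and was hybridised to 4 Affymetrix arrays, 1 per sample. The stem group (2 arrays) was Lgr5(hi) cells sorted by flow cytometry from wild-type animals. The enterocyte group (2 arrays) was villus cells released with EDTA from animals with a conditional knockout of Atoh1. The labels of all 4 samples, wild type included, give tamoxifen at 1 mg per day over 5 days followed by 5 days without it. The driver of the recombinase, the deleted stretch of Atoh1 and the number of animals per sample are not given in the sources used here. Cell type, genotype and isolation differ together between the groups, so a difference below is one of all 3 at once and the parts cannot be told apart. Each array holds bulk RNA, so "in stem cells" and "in enterocytes" below mean in the arrays of that group. Which cells of a group carried the hormone RNA was not tested. The samples of a group are called biological replicates without naming the animals, so the p-values measure only the spread between these samples.

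Hormones of the gut are made by enteroendocrine cells, which are scattered singly through the epithelium and release peptides or serotonin when nutrients reach them. These cells arise in the crypt from progenitors that switch on Atoh1 and then Neurog3 and Neurod1, and each mature cell makes only a few hormones. Cells that make Gip, Cck, secretin and ghrelin are known mainly from the proximal intestine, and cells rich in Gcg products, Pyy and neurotensin mainly from its distal part. Without Atoh1 the secretory lineages, endocrine cells among them, are known to be lost.

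The promoters of 4 of these genes are shown first, those of the 3 with the lowest fitted difference (Gip, Tac1 and Gcg, the last 2 with enterocyte values below background) and that of Sct, which did not pass the test. Each is the stretch of 250 bases before the transcription start on the coding strand, from RefSeq, build GRCm38.p6. Capitals mark every CANNTG, the general E-box pattern of basic helix-loop-helix factors, and TATAAA on the coding strand. Atoh1, Neurog3 and Neurod1 belong to this family. Which factor, if any, binds a marked stretch was not tested.
Gip: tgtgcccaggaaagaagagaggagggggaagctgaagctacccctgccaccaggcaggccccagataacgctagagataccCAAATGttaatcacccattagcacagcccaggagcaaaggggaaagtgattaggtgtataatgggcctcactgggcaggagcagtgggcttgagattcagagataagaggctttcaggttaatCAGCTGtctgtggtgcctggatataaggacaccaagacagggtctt
Tac1: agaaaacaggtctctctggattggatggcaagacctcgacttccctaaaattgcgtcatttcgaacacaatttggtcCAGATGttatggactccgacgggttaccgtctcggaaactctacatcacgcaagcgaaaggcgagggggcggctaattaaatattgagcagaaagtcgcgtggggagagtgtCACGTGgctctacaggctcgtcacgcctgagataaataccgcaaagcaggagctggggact
Gcg: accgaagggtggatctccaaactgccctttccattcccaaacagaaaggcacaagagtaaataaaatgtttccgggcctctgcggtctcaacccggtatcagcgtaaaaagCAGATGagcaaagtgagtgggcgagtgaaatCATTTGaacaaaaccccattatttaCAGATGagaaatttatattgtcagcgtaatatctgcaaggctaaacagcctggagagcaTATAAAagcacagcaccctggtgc
Sct: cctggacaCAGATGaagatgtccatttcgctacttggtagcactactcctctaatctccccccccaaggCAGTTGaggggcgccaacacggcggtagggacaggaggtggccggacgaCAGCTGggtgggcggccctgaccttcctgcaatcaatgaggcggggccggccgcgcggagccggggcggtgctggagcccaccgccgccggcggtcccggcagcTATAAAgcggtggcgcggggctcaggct
The Gip stretch lies at chr11:96024295-96024544 on the plus strand and that of Tac1 at chr6:7554811-7555060 on the plus strand. The Gcg stretch lies at chr2:62483654-62483903 on the minus strand and that of Sct at chr7:141279134-141279383 on the minus strand. Gip and Tac1 held 2 E-boxes each and Gcg and Sct held 3 each, and 66.2% of 32851 promoters of this length held at least 1. Of the other genes, Cck held 3, Sst and Nts 1 each, and Pyy 1 at each of its 2 starts. Tph1 held 0 at both of its starts, and the 4 starts of Ghrl held 5, 0, 0 and 3. The form CAGATG (searched on both strands, and itself an E-box), known as a Neurod1 target sequence, occurred at 2 places in Gcg and at 1 in Tac1, Sct and Cck, and in 14.4% of all promoters. Gip held none. The sequence TATAAA stood 24 bases before the start in Gcg and 28 before it in Sct, and in 7.6% of all promoters within the stretch. Sst held TGACGTCA, the cyclic AMP response element, 48 bases before its start, a motif found in 1.5% of promoters. All 10 genes matched an entry, 7 of them a single one, while Pyy, Tph1 and Ghrl had several starts.

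Markers of the labelled cell types went in the direction of the labels. All 11 stem cell markers measured fell in the enterocyte group and all 13 enterocyte markers rose, by limma with adjusted p at or under 0.05. Over all genes tested, 22.4% fell and 18.2% rose. Markers of other cells were also bright. In the stem arrays, stem cell markers summed to 29798 to 35718 units. Paneth markers summed there to 36205 to 50314 units and goblet markers to 44153 to 50963. In the enterocyte arrays, enterocyte markers summed to 215078 to 217724 units and lymphocyte markers to 8895 to 11944. Lymphocyte markers summed to 698 to 967 units in the stem arrays. Each list has its own probe sets, so sums of different lists cannot be set against each other as cell content. How pure the groups were was not tested. Lgr5, by which the stem cells had been sorted, had a log2 difference of -4.64 ± 0.36 SE, and Atoh1, at log2 7.43 and 7.71 in stem cells, was 5.06 and 5.28 in enterocytes, below both background levels given next. Array medians lay between 102.4 and 110.6 intensity units. The groups also differed in a measure of RNA handling: the signal of the 3′ over the 5′ control probe set of Gapdh was 3.24 and 3.78 in stem cells and 1.11 and 1.13 in enterocytes, and that of beta-actin 4.17 and 4.30 against 1.48 and 1.42. Its part in the differences below was not tested. A background level of 93.2 units (log2 6.54) was taken as the 90th percentile of 37 genes of other organs. As 3 of those 37 genes passed the threshold themselves, a second level without them, 58.5 units, was added after the data were seen.

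Hormone genes were lower in the enterocyte arrays or showed no difference past the threshold, and 0 of 10 were higher. Gip, Tac1, Gcg, Tph1 and Ghrl fell (5 of 10), where 22.4% of all genes tested fell, and Cck, Sst, Pyy, Nts and Sct did not pass; in either direction 40.6% of all genes passed. In 7 of 10 both stem arrays lay above both enterocyte arrays, against 34.8% of all genes, and in 0 of 10 the reverse held, against 30.5%. Both stem arrays were above the background level in 8 of 10, where this held for 57.5% of all genes, and both enterocyte arrays in 1 of 10, Sct, where it held for 55.5%. The median log2 difference of the 10, enterocyte minus stem, was -2.09, beside -0.00261 over all genes. Summed over the 10 probe sets, intensity was 4823 and 5947 in stem cells and 890.6 and 730.4 in enterocytes. In bulk RNA, fewer cells of a type and less RNA per cell cannot be told apart. Without either stem array limma called 0 genes of any kind, with 7 and 6 of the hormone genes at an unadjusted p under 0.05. Without either enterocyte array 2 hormone genes, Gip and Ghrl, passed.

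**Figure D1:**
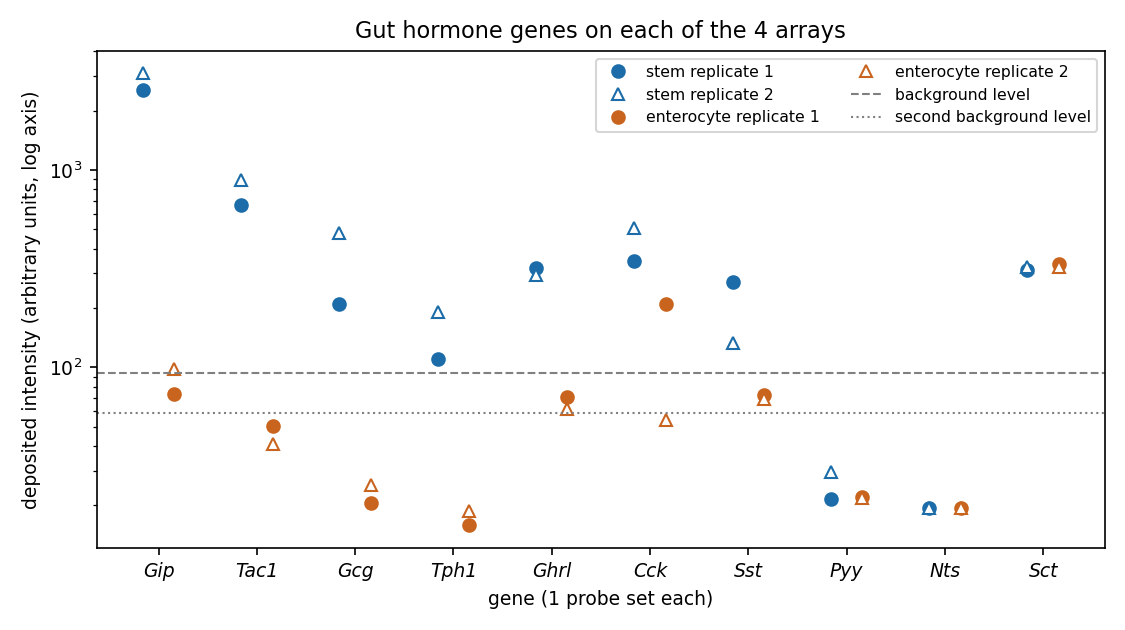
Deposited intensity (arbitrary units, log axis) of the 10 genes on each array, with stem arrays in blue, enterocyte arrays in orange, circles for replicate 1, open triangles for replicate 2, and lines at the background levels of 93.2 and 58.5 units. Gip stands at 2550.1 and 3088 units in the stem arrays, Sct is level across all 4, and Pyy and Nts lie below both lines; heights of different genes cannot be set against each other, as each has its own probes.

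Among hormones of the proximal intestine, Gip was bright in the stem arrays and dim in the enterocyte arrays. Gip encodes glucose-dependent insulinotropic polypeptide, which K cells release after a meal to raise insulin secretion. The stem arrays read 2550.1 and 3088 units, the enterocyte arrays 73.6 and 98.0. The groups were far apart, and of the enterocyte arrays only replicate 2 lay above the background level. The log2 difference was -5.05 ± 0.20 (SE, 2 arrays a group, adjusted p = 0.00293 by limma), which is at least 29.4-fold lower.

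Ghrl encodes ghrelin, a hunger hormone made mainly in the stomach and also by endocrine cells of the duodenum. Its intensity was 318.3 and 294.2 units in stem cells, against 71.1 and 61.4 in enterocytes. The arrays of a group lay close together and the groups did not overlap. It was at least 3.28-fold lower, with a log2 difference of -2.21 ± 0.11 (SE, 2 arrays a group, adjusted p = 0.00341 by limma).

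Cck encodes cholecystokinin, which contracts the gall bladder and drives pancreatic enzyme secretion. It measured 346.5 and 506.6 units in the stem arrays, 209.7 in enterocyte replicate 1 and 53.9 in enterocyte replicate 2. Both stem arrays were above both enterocyte arrays, but the enterocyte arrays differed 3.89-fold from each other, a gap reached by only 22 genes (0.178%), Cck included. The log2 difference of -1.98 ± 0.80 (SE, 2 arrays a group) did not pass (adjusted p = 0.158 by limma), with a 95% interval from -4.43 to 0.48. Against enterocyte replicate 1 alone it was -0.998, and against enterocyte replicate 2 alone -2.96. Of 17 alternative settings Cck passed in 1, with each array centred on 12 reference genes (-2.09, adjusted p = 0.0415 by limma).

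Sct encodes secretin, which makes the pancreas release bicarbonate. The stem arrays gave 312.0 and 320.9 units for Sct, the enterocyte arrays 334.7 and 320.9. The groups overlapped, all 4 values were above the background level, and stem replicate 2 and enterocyte replicate 2 held the same deposited value. The difference was 0.05 ± 0.06 (SE, 2 arrays a group, adjusted p = 0.542 by limma), with a 95% interval from -0.13 to 0.23. The interval holds for the signal of this probe set, and whether that signal follows Sct RNA was not tested. With reference gene centring the difference was -0.0583.

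Sst encodes somatostatin, the peptide by which D cells restrain the release of other hormones. It stood at 271.5 and 133.1 units in the stem arrays, against 72.8 and 69.6 in the enterocyte arrays. The stem arrays differed 2.04-fold, a gap reached by 29 genes (0.234%), and here stem replicate 1 was the higher one. The difference of -1.42 ± 0.41 (SE, 2 arrays a group) did not pass (adjusted p = 0.0790 by limma). It passed in 3 of 18 alternative settings: quantile normalization (adjusted p = 0.0366 by limma), reference gene centring (0.00987) and dim genes left out (0.0274). With dim values raised to the first background level it was -1.03 (adjusted p = 0.313 by limma). Both enterocyte values of Sst lay below that level and above the second.

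The genes of enterochromaffin cells, the serotonin cells of the gut, both fell. Tac1 encodes substance P and neurokinin A, tachykinins found in these cells and in enteric neurons. In stem cells Tac1 measured 663.2 and 885.2 units, in enterocytes 50.6 and 41.1. The groups did not overlap and both enterocyte values were under both background levels. The log2 difference was -4.07 ± 0.21 (SE, 2 arrays a group, adjusted p = 0.00352 by limma), at least 8.22-fold lower by the first level and at least 13.1-fold by the second.

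Tph1, tryptophan hydroxylase, was dimmer throughout. It read 110.9 and 190.1 units in the stem arrays, little above background, and 15.9 and 18.7 in enterocytes. The difference was -3.08 ± 0.32 (SE, 2 arrays a group, adjusted p = 0.00933 by limma). As an enterocyte value under background has no level of its own, only a fall of at least 1.56-fold is measured, or at least 2.48-fold by the second level. The call ended when dim values were raised to the first level (-0.64, adjusted p = 0.410 by limma) or to the second (-1.31, adjusted p = 0.127).

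Of the hormones known mainly from the distal intestine, Gcg alone was above background. Gcg encodes proglucagon, cut in the intestine to the incretin GLP-1 and the growth peptide GLP-2. Its stem arrays stood at 208.8 and 480.3 units, its enterocyte arrays at 20.6 and 25.3. The groups did not overlap, but the stem arrays differed 2.30-fold, a gap reached by 9 genes (0.0726%). The log2 difference was -3.79 ± 0.49 (SE, 2 arrays a group, adjusted p = 0.0137 by limma), at least 3.40-fold lower by the first background level and at least 5.41-fold by the second. The call ended with dim values raised to either level (-1.76, adjusted p = 0.172 by limma, and -2.44, adjusted p = 0.0941).

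Pyy, which encodes peptide YY, a satiety hormone of L cells, was 21.6 and 29.6 units in stem cells and 22.0 and 21.9 in enterocytes. The groups overlapped, all 4 values were below both background levels, and the difference was -0.21 ± 0.19 (SE, 2 arrays a group, adjusted p = 0.451 by limma). Nts, which encodes neurotensin, was deposited as the same value, 19.5 units, on all 4 arrays, as were 206 genes (1.66%) in all. How such ties came about is not stated in the sources at hand. For Pyy and Nts no level could be told from background in either group.

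**Figure D2:**
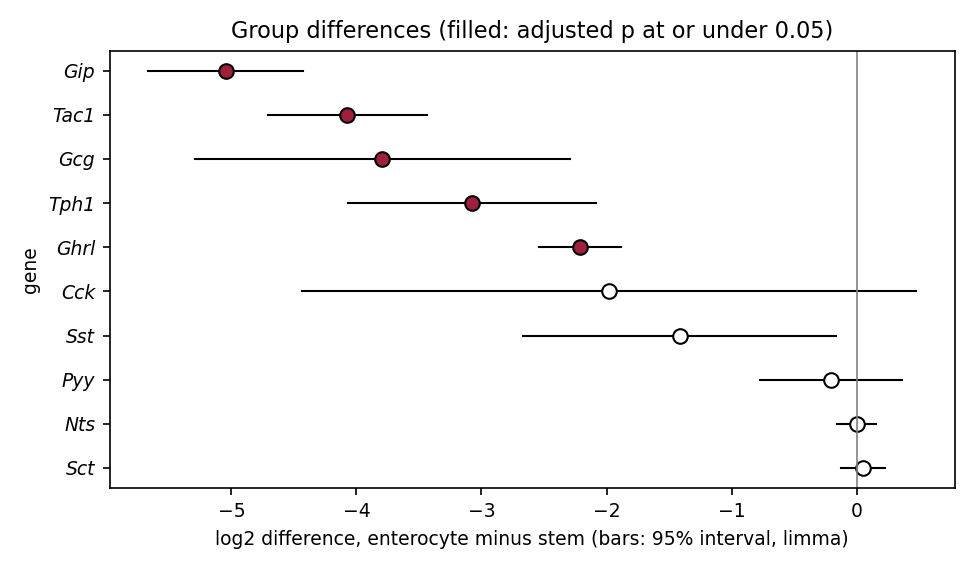
Log2 difference of each gene, enterocyte minus stem, with its 95% interval from limma; filled points passed an adjusted p of 0.05. Gip at -5.05 and Ghrl at -2.21 have narrow intervals, Cck at -1.98 has one from -4.43 to 0.48, and Sct lies at 0.05.

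The 2 arrays of a group did not differ in 1 direction for all hormones. Stem replicate 2 was the higher for 7 of the 10 genes (Cck, Gcg, Gip, Sct, Tac1, Pyy and Tph1), stem replicate 1 for Sst and Ghrl, and Nts was tied. On the log2 scale, stem replicate 2 minus stem replicate 1 was 1.20 for Gcg, 0.78 for Tph1 and 0.55 for Cck, but -1.03 for Sst and -0.11 for Ghrl. Chga and Neurod1 leaned like Gcg, with gaps of 0.64 and 0.85, while Neurog3 had -0.05 and Lgr5 -0.37. Among markers of other epithelial cells, 6 of 7 Paneth cell markers were higher in stem replicate 2 (median gap 0.71) and 7 of 9 tuft cell markers higher in stem replicate 1 (median -0.77). In the enterocyte group, replicate 2 was higher for 6 of 7 Paneth markers, at a median of 2.84, with gaps of 2.99 for Lyz1, lysozyme, and 3.51 for Itln1. Over that pair tuft markers moved the other way, 8 of 9 higher in enterocyte replicate 1 and 0 in replicate 2 (median -0.52). Cck was also higher in enterocyte replicate 1, at -1.96, while Gip and Gcg differed by 0.41 and 0.29. The part of Paneth or tuft cells in the hormone values was not tested.

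**Figure D3:**
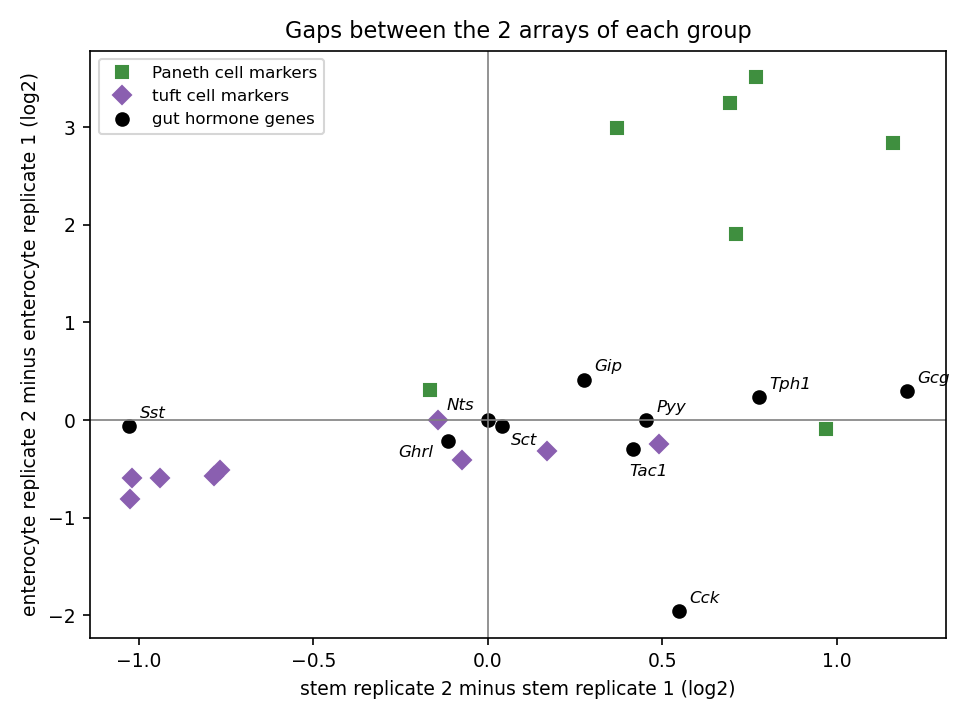
Each point is a gene: the x axis gives stem replicate 2 minus stem replicate 1 and the y axis enterocyte replicate 2 minus enterocyte replicate 1, both in log2 units, for hormone genes (black), Paneth markers (green squares) and tuft markers (purple diamonds). Gcg at 1.20 and Sst at -1.03 lie at opposite ends of the x axis, and Cck at -1.96 is lowest on the y axis, where Paneth markers such as Itln1 reach 3.51.

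Of 25 measured granin and exocytosis genes, which pack hormones into granules and release them, 7 fell, 0 rose and 18 did not pass, at a median of -0.20, where 22.4% of all genes fell. Of the 25, 16 were below background on all 4 arrays, 2 of those that fell among them. Once dim values were raised to background 4 of the 25 fell, where 14.7% of all genes fell. Chgb, chromogranin B of the granule core, was 11.97 and 12.26 in stem cells and 5.79 and 6.83 in enterocytes (log2 levels), at least 43.2-fold lower. Chga, chromogranin A, was at least 4.79-fold lower, and Cplx2, a complexin of vesicle fusion, at least 3.27-fold lower, both with enterocyte values below background. Scg2, Scg3 and Syp, further granule and vesicle genes, did not pass and were below background in both groups.

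Of 22 measured transcription factors of the endocrine lineage, 13 fell, 1 rose and 8 did not pass, at a median of -0.49, against 22.4% of all genes that fell and 18.2% that rose. Of the 22, 10 were below background on all 4 arrays, 4 of those that fell among them. Once dim values were raised to background, 6 fell and 0 rose, where 14.7% of all genes fell and 11.7% rose. Neurog3, which commits progenitors to the endocrine fate, was 9.54 and 9.49 in stem cells and 5.33 and 4.88 in enterocytes (log2 levels), at least 7.82-fold lower (adjusted p = 0.00305 by limma). Neurod1, which acts after Neurog3, was at least 3.63-fold lower (-3.28 ± 0.34 SE), and Nkx2-2 at least 1.79-fold lower (-3.06 ± 0.16 SE). Pdx1, a homeobox factor of duodenum and pancreas, rose by 1.0 ± 0.15 SE on the log2 scale. Its own values were above background on all 4 arrays, but its call was lost when dim values of other genes were raised. Rfx6 was not analysed here.

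Of 17 measured enzymes that process prohormones or make amines, 1 fell, 7 rose and 9 did not pass, at a median of 0.59, where 22.4% of all genes fell and 18.2% rose. Pcsk1, the convertase of endocrine granules, was below background on all 4 arrays, at 5.89 and 6.05 against 5.89 and 5.64 (log2 levels), and did not pass. Cpe, which trims the peptides after cleavage, was 7.66 and 8.0 in stem cells and 10.41 and 9.17 in enterocytes, and at 1.96 ± 0.51 SE did not pass (adjusted p = 0.0621 by limma). Ddc, the decarboxylase that acts after Tph1 in serotonin synthesis, rose 5.33-fold (2.41 ± 0.21 SE), opposite in direction to Tph1. Gch1, which makes the cofactor that Tph1 uses, rose 12.8-fold (3.68 ± 0.24 SE), and Pcsk6, a convertase of secreted proteins, rose 7.55-fold (2.92 ± 0.33 SE). Tpst2, a tyrosine sulfotransferase, was the 1 that fell, by 0.32 (SE 0.06).

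Of 18 other gut and endocrine peptide genes measured, 1 rose and 0 fell, where 18.2% of all genes rose and 22.4% fell. Of the 18, 15 were below background on all 4 arrays, among them Gast, Vip, Insl5 and Ppy. Guca2b, which encodes uroguanylin, a peptide that acts on guanylate cyclase of the epithelium, rose 17.9-fold (4.16 ± 0.25 SE, adjusted p = 0.00416 by limma). Its relative Guca2a, guanylin, was 9.71 in both stem arrays, against 8.61 and 10.95 in enterocytes (log2 levels), which lie on either side of the stem value. Receptors for these hormones were dim: 25 of 27 were below background on all 4 arrays. By limma 1 receptor rose (Vipr1, 0.66 ± 0.15 SE) and 1 fell (Npy2r, -0.59 ± 0.11 SE), both below background. The same shares of all genes, 18.2% and 22.4%, stand beside these counts.

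Of 13 measured genes that break down hormones or clear serotonin, 8 rose, 3 fell and 2 (Pcyox1 and Ece1) did not pass, at a median of 2.15, where 18.2% of all genes rose and 22.4% fell. Dpp4, the peptidase that inactivates GLP-1 and Gip, was 9.83 and 9.77 in stem cells and 12.18 and 12.49 in enterocytes (log2 levels), 5.81-fold higher (adjusted p = 0.00356 by limma). Slc6a4, the serotonin transporter, rose 3.83-fold (1.94 ± 0.23 SE), and Maoa, which oxidises serotonin, 4.59-fold (2.20 ± 0.18 SE). Among peptidase genes, Anpep rose 16.7-fold, Mme 16.3-fold and Ace at least 29.3-fold. Thop1, Ide and Nln, peptidases found mainly inside the cell, fell by 1.70 (SE 0.09), 0.65 (SE 0.10) and 0.46 (SE 0.08). Dpp4, Slc6a4 and Maoa were chosen for mention after their values were seen.

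Among 10 measured sensors of nutrients, 4 rose, 2 fell and 4 did not pass, at a median of 0.09, where 18.2% of all genes rose and 22.4% fell. Once dim values were raised to background, 2 rose and 0 fell, where 11.7% of all genes rose and 14.7% fell. With the replicate block 3 rose and 0 fell, where 16.2% of all genes rose and 20.6% fell. Of the transporters that endocrine cells share with enterocytes, Slc5a1, for glucose, rose 11.4-fold and Slc15a1, for peptides, at least 16.4-fold. Trpm5, an ion channel also marking tuft cells, rose 4.55-fold (2.19 ± 0.44 SE). Ffar2, a receptor for short-chain fatty acids, fell, to at least 1.31-fold lower, and Abcc8, below background on all arrays, was -0.58 ± 0.10 SE.

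**Figure D4:**
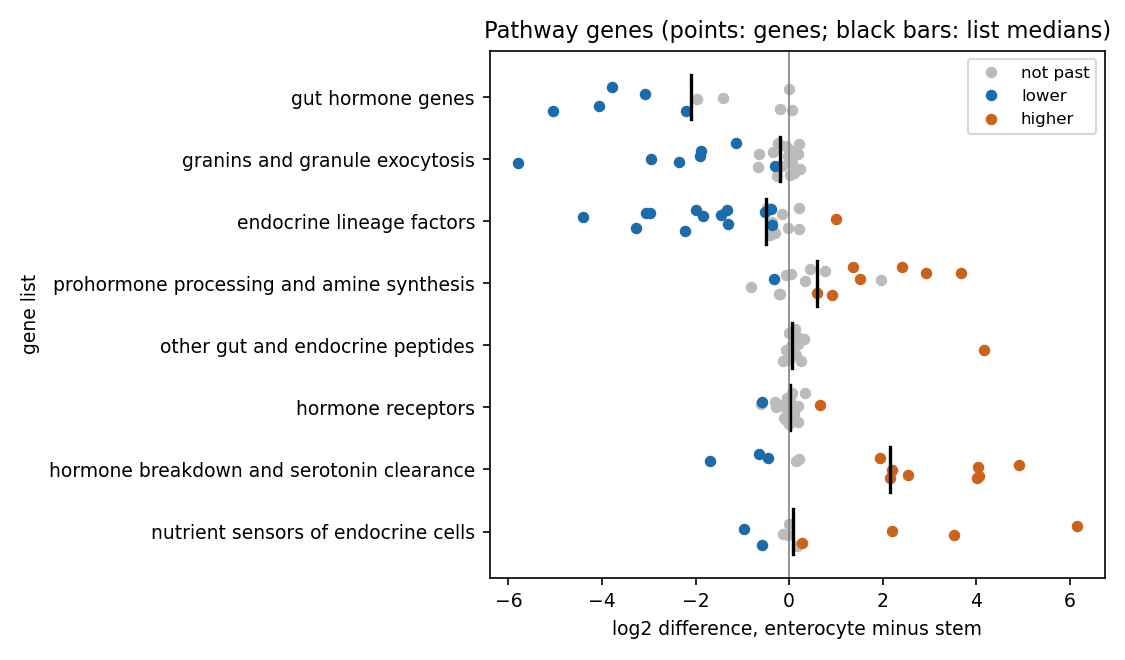
Log2 difference, enterocyte minus stem, of each measured gene in the hormone list and in 7 lists of related genes; blue points fell, orange points rose and grey points did not pass, and black bars mark list medians. Hormone genes have a median of -2.09 and 0 orange points, lineage factors 13 blue points of 22, and the breakdown list a median of 2.15.

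Other cells could also carry Tac1, Sst or Nts RNA. Of 19 measured markers of enteric neurons and glia, 18 were below background on all 4 arrays, Elavl4, Prph and Uchl1 among them. Nefm and Snap25 fell and Stmn3 rose, all below background. Sox10, which did not pass, was 6.29 and 6.48 in stem cells and 6.79 and 6.67 in enterocytes (log2 levels). The summed intensity of the 19 was 630.1 to 659.3 units in the stem arrays and 655.8 to 666.3 in the enterocyte arrays, mostly from values under background. For muscle and stroma 10 of 13 were below background on all arrays, with sums of 529.8 to 658.7 and 547.1 to 568.8 units. Vim, vimentin, was the 1 of them that fell, from 7.20 and 7.77 to 5.20 and 5.24 (log2 levels), at least 1.92-fold lower (adjusted p = 0.00874 by limma). Goblet markers moved with the hormones, 9 of 11 falling with sums of 44153 to 50963 against 12758 to 12965 units. Muc13, the 1 goblet marker that rose, made up 11628 to 11956 units of the enterocyte sums, and the other 10 markers summed to 37265 to 44274 units in stem cells against 802.2 to 1337 in enterocytes. Of Paneth markers 3 of 7 fell, with sums of 36205 to 50314 against 750.2 to 6487 units. Tuft markers moved the other way, 7 of 9 rising with 0 falling, as did 11 of 13 lymphocyte markers. Over all genes tested, 22.4% fell and 18.2% rose. The part of these cells in the hormone differences was not tested.

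Across the 4 arrays the genes most like Gip, by Euclidean distance between log2 values centred per gene, were Egr1 (distance 0.328), Fcgbp (0.511) and Ccl6 (0.610). Those nearest to Tac1 were Rgcc (0.222), Slc14a1 (0.234) and Ern2 (0.346), and those nearest to Gcg were H1f4 (0.349), Ern2 (0.465) and Tex9 (0.590). With 2 groups of 2 arrays, likeness in this measure is mostly likeness of the group difference.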

How the data were processed

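The authors deposited 1 normalized intensity per probe set and array, on a linear scale. Per the submitters' processing notes RMA was used, in a version not given; nor is the scaling between arrays. Biotinylated cRNA was made from 100 ng of total RNA, per the labels' protocols. The deposited intensities were log2-transformed without a pseudocount.

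Of 22690 probe sets, 64 were controls, 20380 had exactly 1 gene symbol, 691 had several, and 1555 others had none in the platform annotation. The probe set with the highest mean stood for each of 12393 genes. Differences, enterocyte minus stem, were fitted with limma 3.58.1 in R 4.3.3 (lmFit, eBayes, two-sided, 2 residual degrees of freedom), with p-values adjusted over all genes (Benjamini-Hochberg) and called at 0.05 or under. A 2 against 2 exact permutation cannot give a p below 0.333, so none is given. Where 1 group lay below the background level, folds are written "at least", with each dim array raised to that level. The number of arrays limits the precision. 0 columns had no sample.

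The members and lists were chosen with earlier results of these data known. Named genes were all 10 hormone genes, Atoh1, Lgr5, Chga, Chgb, Neurog3 and Neurod1, up to 3 genes per pathway list and direction with the largest difference past the threshold, the brightest markers of other cell types and the 3 nearest genes of the 3 members with the lowest fitted difference; others named were chosen after their values were seen. The fit was also run on simulated data with independent noise and no ties, unlike these data, and no result here rests on that run. Replicate numbers are shared by the groups, but same-numbered arrays deviated together at r = 0.0504 across genes, so no pairing was used.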

Additional observations from a re-analysis of the deposited data

How the results depend on the processing

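Raising dim values to the background level left 3 hormone genes past the threshold (Gip, Tac1 and Ghrl). It left 3269 genes in all and 30 of 132 pathway genes, where 5, 5036 and 49 passed as deposited. The second level, added after the data were seen, also left 3 hormone genes, with 3495 genes in all. Testing all probe sets gave 8315 calls among probe sets and 5 hormone genes. Leaving out 1 array, which leaves 1 residual degree of freedom, gave 0 to 2 hormone genes, 0 to 1721 genes in all and 0 to 20 pathway genes. Without stem replicate 1 or stem replicate 2 the unadjusted p was under 0.05 in 4675 and 4817 genes. With the replicate block 5 hormone genes, 4567 genes and 43 pathway genes passed, and it changed no hormone call. Signs turned for 2 genes that never passed: Sct was -0.0583 with reference gene centring, and Pyy was 0.0206 without stem replicate 2, the highest of its values with 1 array left out, and -0.4325 without stem replicate 1, the lowest. Reference gene centring moved the median difference of all genes to -0.112 and called 7 hormone genes lower, where 28% of all genes fell. Quantile normalization called 6 lower, where 24.2% of all genes fell. Probe sets with shared suffixes left out removed Cck and Gcg, and the filter on dim genes removed Gcg, Tph1, Pyy and Nts, so no value was had for these there. Dim signal limits Tph1, Gcg, Pyy and Nts most.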
